A study of Mus musculus with 5 samples.

Results

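Resident-type macrophages of the atherosclerotic mouse aortic arch were taken here as single cells that were high in complement C1q, carried RNA of a group of resident-macrophage genes and had little RNA of lipid-laden macrophage genes. A cell was included when, per 10000 of its molecules, C1qa, C1qb and C1qc summed to at least 30, F13a1, Cbr2, Folr2, Lyve1, Mrc1 and Pf4 (the resident sum) to at least 15, and Trem2, Gpnmb, Spp1 and Fabp5 (the lipid-laden sum) to less than 10. A molecule is a unique molecular identifier, and mitochondrial genes could hold at most 25% of a cell's molecules. The rule found 195 of 1656 cells, 130 in the pool labelled wild-type and 65 in the pool labelled Saa3-/-. The remaining 200 C1q-high cells served for comparison. They were 126 non-resident cells, with a resident sum under 15, and 74 lipid-laden cells, with a lipid-laden sum of at least 10. The 13 genes of the rule chose the cells, so their levels, and all differences between these classes, are description.

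The cells came from female mice in which atherosclerosis was induced at an age of 12 weeks, per the design text, with an AAV8 vector driven by the hAAT promoter, a liver promoter. They then ate a Western diet for 18 weeks, although the labels give 12 weeks as the age. Both groups received the vector and the diet. One group was C57BL/6J wild-type. The other, C57BL/6N-Saa3tm1.1(KOMP)Vlcg/MbpMmucd, carried a targeted Saa3 allele, although the groups are described as littermates. The labelled substrain differs with the allele, so the 2 cannot be told apart. Live CD45+ cells (CD45 marks haematopoietic cells) were sorted from the arch, marked with a sample tag per group and captured together. The number of mice in each pool is not given in the sources used here. With 1 pool per genotype no test between genotypes is possible, so no p-value is given, and the intervals (95%, exact Poisson for levels and exact Clopper-Pearson for shares) cover counting error only. The BD Rhapsody tables hold 889 and 854 cells, of which 833 and 823 remained, and no cell index occurs in both. Over all kept cells Saa3 went against the labels, with 1079 molecules in the pool labelled wild-type and 1268 in the pool labelled Saa3-/-. The pools are therefore named by their labels throughout. Saa3 encodes serum amyloid A3, an acute-phase protein. A deleted gene can still give RNA from what is left of it, and which part of the transcript was counted is not given, so this check does not settle the label. The 4 cultured bone-marrow macrophage samples of the series were not analysed here.

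Arteries hold a population of resident macrophages, largely in the adventitia, that is seeded before and around birth and maintained by local division. These cells take up debris and macromolecules through scavenger receptors such as CD163 and the mannose receptor MRC1, and those with the hyaluronan receptor LYVE1 have been linked to control of collagen around smooth muscle. In atherosclerosis, monocyte-derived macrophages collect in the intima, and some load lipid and switch on Trem2, Gpnmb and Spp1.

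Macrophage genes were present in both pools. Csf1r, the receptor for macrophage colony-stimulating factor, stood at 1332 CPM in the pool labelled wild-type and 1787 CPM in the pool labelled Saa3-/-, where CPM is molecules per 1000000 molecules of the same cells. Adgre1, which encodes F4/80, stood at 1075 CPM in the pool labelled wild-type and 745 CPM in the pool labelled Saa3-/-. Markers of NK cells, neutrophils and T cells summed to at most 15.2 per 10000 molecules in any of the 195 cells, and Ly6g was at 0 in both pools. Other lineages were less clean, with B cell markers summing to up to 3529 and 137 and mast cell markers to up to 945 and 6.35. Markers of lineages other than macrophages and dendritic cells, added together, summed to at least 50 in 30 of 130 and 14 of 65 cells, called marker-rich. A cell can reach this sum without reaching 50 for any single lineage. The cells were deep in the pool labelled wild-type, with a lowest, median and highest count of 1714, 10486 and 45469 molecules, and shallower in the pool labelled Saa3-/-, with 1874, 6497 and 32983. In all, 1693715 and 512491 molecules were available. Mitochondrial genes took a median of 5.11% and 5.63% of them.

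Resident-type cells made up a larger share of the pool labelled wild-type. They were 15.6% (13.2 to 18.3%; 130 of 833) of its kept cells, against 7.90% (6.15 to 9.96%; 65 of 823) in the pool labelled Saa3-/-. Of the C1q-high cells alone they were 55.1% (48.5 to 61.5%; 130 of 236) and 40.9% (33.2 to 48.9%; 65 of 159). Lipid-laden cells showed the opposite order among C1q-high cells, with 13.6% (9.46 to 18.6%; 32 of 236) and 26.4% (19.7 to 34.0%; 42 of 159), while non-resident cells took 31.4% (25.5 to 37.7%; 74 of 236) and 32.7% (25.5 to 40.6%; 52 of 159). Of kept cells, lipid-laden cells were 3.84% (2.64 to 5.38%) and 5.10% (3.70 to 6.84%), with overlapping intervals. All C1q-high cells together were 28.3% and 19.3% of kept cells. Shares of C1q-high cells make up a whole, so a smaller share of 1 class raises the others. These are shares of cells recovered by a CD45 sort from 1 pool each, and the spread between mice is unknown. The C1q-high cells formed a continuum along the resident sum. Of the resident-type cells, 19 had a resident sum between 15 and 20 (the nearest at 15.9), and 37 C1q-high cells of low lipid-laden sum lay between 10 and 15 (the nearest at 14.9). On the lipid-laden sum, 28 resident-type cells lay between 5 and 10 and 11 cells with resident genes between 10 and 15, the nearest at 9.98 and 10.1. The C1q limit cut few cells, with 5 inside between 30 and 40 and 7 outside between 20 and 30.

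**Figure D1:**
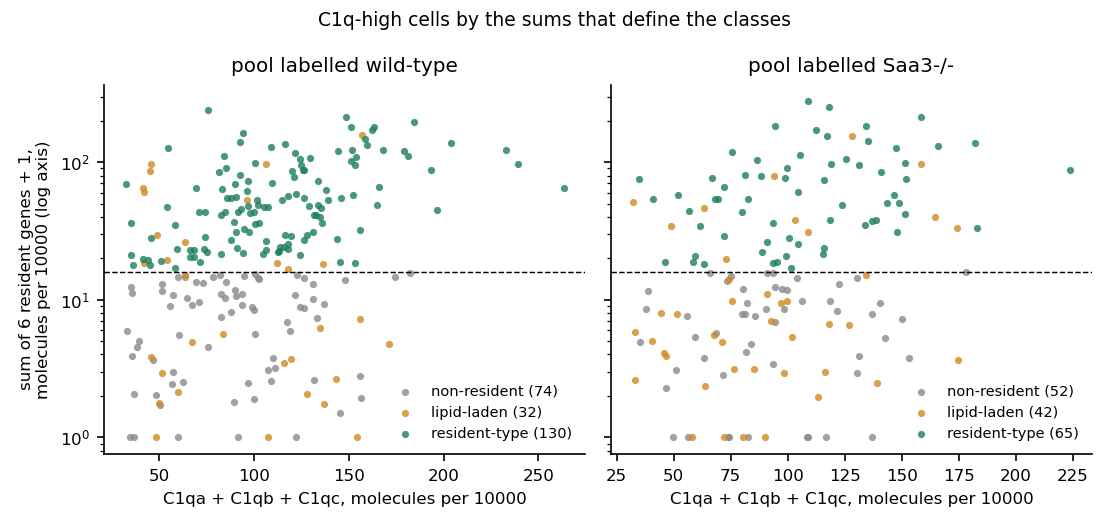
Every C1q-high cell of each pool by its C1q sum (horizontal) and its resident sum plus 1 (vertical, log axis), both in molecules per 10000 molecules of the cell, coloured by class, with the limit on the resident sum as a dashed line. The resident-type cells, 130 in the pool labelled wild-type and 65 in the pool labelled Saa3-/-, lie above the line and run down to it without a gap, and the lipid-laden cells, set apart by their lipid-laden sum, lie on both sides.

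Of the genes that chose the cells, Mrc1, the mannose receptor, stood at 1356 and 1883 CPM in the pools labelled wild-type and Saa3-/- in that order. It was found in 99.2 and 100% of the cells. Cbr2, a carbonyl reductase, stood at 1135 and 1167 CPM. F13a1, the A subunit of coagulation factor XIII, which crosslinks fibrin, stood at 1096 and 1225 CPM. Pf4, a heparin-binding chemokine, stood at 828 and 1009 CPM, and Folr2, folate receptor beta, at 729 and 611 CPM. These 5 genes were each found in 75.4 to 100% of the cells of a pool.

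Lyve1 was found in fewer cells. It stood at 404 and 558 CPM, but was found in 49.2 and 47.7% of the cells, and in 30.5 and 35.9% after each cell was thinned to 2000 molecules. In cells with T cell markers, which should lack it, the shares were 2.53 and 5.10%, or 1.04 and 1.61% thinned, at median depths of 4458 and 4039 molecules. All 6 resident genes were found in 60 of 130 and in 26 of 65 cells, and no cell was chosen on fewer than 2 of them. The resident sum itself had a median of 46.7 (15.9 to 239) and 53.3 (16.01 to 276) per 10000 molecules, and the ranges of the 2 pools overlapped nearly in full.

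**Figure D2:**
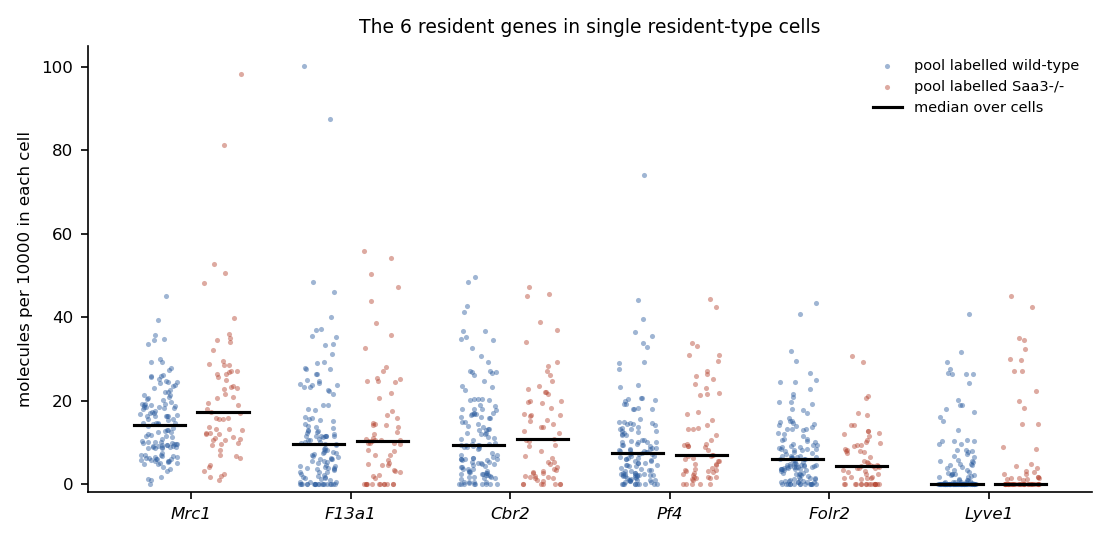
Level of each of the 6 resident genes in every resident-type cell, in molecules per 10000 molecules of the cell, with 1 point per cell (spread sideways for visibility only), columns by pool and the median over cells as a bar. The cells of both pools cover similar ranges for each gene, and the median of Lyve1 is 0 in both pools, where it was found in 49.2 and 47.7% of the cells.

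The stretches before the start sites of these genes are shown because 4 of the 5 with a window share 1 short motif. It is GAGGAAG, which reads CTTCCTC on the other strand, a core of the sites bound by PU.1, the transcription factor (gene Spi1) on which macrophages depend. Capitals mark it in the 250 bases before the RefSeq start on GRCm38.p6, written 5′ to 3′ on the gene's strand. They lie at chr11:120732022-120732271 (minus strand) for Cbr2, chr13:37050245-37050494 (minus strand) for F13a1, chr2:14229164-14229413 (plus strand) for Mrc1 and chr5:90772185-90772434 (plus strand) for Pf4.
Cbr2: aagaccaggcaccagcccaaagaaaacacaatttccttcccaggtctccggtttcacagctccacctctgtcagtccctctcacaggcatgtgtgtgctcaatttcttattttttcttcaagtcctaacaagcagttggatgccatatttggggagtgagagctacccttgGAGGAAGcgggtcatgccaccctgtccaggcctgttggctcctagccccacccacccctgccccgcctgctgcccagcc
F13a1: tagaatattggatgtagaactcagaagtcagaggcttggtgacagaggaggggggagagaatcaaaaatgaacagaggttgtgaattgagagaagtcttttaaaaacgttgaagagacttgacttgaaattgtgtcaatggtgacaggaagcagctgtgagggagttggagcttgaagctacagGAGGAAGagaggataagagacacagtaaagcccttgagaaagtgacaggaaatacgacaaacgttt
Mrc1: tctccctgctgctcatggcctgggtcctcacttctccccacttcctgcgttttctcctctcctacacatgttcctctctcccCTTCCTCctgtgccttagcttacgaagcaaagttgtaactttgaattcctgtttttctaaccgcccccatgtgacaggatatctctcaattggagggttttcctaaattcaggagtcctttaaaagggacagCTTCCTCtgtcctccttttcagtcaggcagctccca
Pf4: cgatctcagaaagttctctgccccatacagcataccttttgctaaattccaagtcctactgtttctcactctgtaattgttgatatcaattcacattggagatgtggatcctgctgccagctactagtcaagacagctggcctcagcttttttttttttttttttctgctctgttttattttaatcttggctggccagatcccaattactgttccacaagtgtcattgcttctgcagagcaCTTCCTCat
The motif begins 79 bases before the start in Cbr2, 66 in F13a1, 168 and 36 in Mrc1 and 9 in Pf4. F13a1 has another window without it, and the 2 windows of Folr2 hold none. Lyve1 had no entry. Counted by window, 4 of the 7 of these genes hold it, against 3485 (10.6%) of all 32841 windows of this length. Of the 15 genes highest in resident-type cells outside the rule, 10 had a window, and 2 of their 11 windows hold it. The half-site TGCTGAC, which reads GTCAGCA on the other strand, of the factor MAF, whose gene is described next, is in 0 of the 7 windows, in 1 of the 11 (Fcna) and in 1252 (3.81%) of all windows. A match is only a run of letters, and no binding was measured.

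Outside the rule, resident-type cells had higher levels than other C1q-high cells of scavenger receptors such as Cd163, of the complement gene C4b and of the chemokines Ccl8 and Cxcl13, and lower levels of Mmp12 and Itgax. A gene was called when its CPM differed at least 2-fold in the same direction in both pools, with at least 50 molecules in each pool's comparison, at least 10 cells and the fold kept without the highest cell of each side. Of 4553 genes, 57 (1.25%) were higher and 51 (1.12%) lower, the genes of the rule included. In the list of 30 further resident-macrophage genes, 27 could be compared, of which 15 were higher and 0 lower. Their median log2 ratio was 1.26 in the pool labelled wild-type and 1.61 in the pool labelled Saa3-/-, beside -0.07 and -0.01 over all genes. The list was chosen with earlier results of these data known, so it gives no independent support for the name of the class. The 16 pan-macrophage genes gave 0 higher and 0 lower calls, with medians of 0.01 and -0.17. Markers of other lineages differed as well. The 4 B cell markers compared were all above 0 in both pools, with medians of 1.22 and 1.114 and 1 higher call, Cd79a, and the 1 dendritic cell marker compared, Itgax, was lower. With the marker-rich cells left out, a step that ignores dendritic cell markers, 57 genes were higher and 46 lower. Of the 57 and 51 earlier calls, 44 and 41 were among them. The part of other lineages in the result was not tested further. In what follows, levels in resident-type cells are set against other C1q-high cells, in the pool labelled wild-type and then the pool labelled Saa3-/-.

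Among receptors, Cd163, the haemoglobin-haptoglobin scavenger receptor, stood at 338 and 659.5 CPM against 67.2 and 61.7 CPM. Clec10a, a galactose-binding lectin, stood at 276 and 277 CPM against 56.2 and 43.1 CPM. Cd209f, a relative of DC-SIGN, stood at 180.1 and 169.8 CPM against 42.9 and 5.82 CPM, although 29.8% of its 50-base stretches also occur in Cd209g, so that the 2 genes may not be told apart. Colec12 and Fcgrt, which encode a scavenger collectin and the neonatal Fc receptor that recycles IgG, were also past the limit, which made 5 higher and 0 lower of 13 scavenger and endocytic receptors. Ednrb, the endothelin B receptor, which clears endothelin, stood at 136 and 166 CPM against 17.2 and 12.8 CPM. Gas6, the bridge between dying cells and the receptors MERTK and AXL, stood at 331 and 423 CPM against 85.9 and 93.1 CPM and was the only call among 15 efferocytosis genes. The lectin pathway gene Fcna stood at 63.8 and 101 CPM against 21.9 and 9.31 CPM.

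Among complement genes, C4b, the complement component C4, stood at 351 and 466 CPM against 51.5 and 78.0 CPM, with 34.6% of its 50-base stretches shared with C4a. Of 13 complement genes other than C1q, 2 were higher and 1 (Itgax) lower, with medians of 0.23 and 0.20. Of 12 haem and iron genes, 3 were higher and 0 lower, namely Cd163, the haem oxygenase Hmox1 and the copper ferroxidase Cp. Hmox1 stood at 781 and 492 CPM against 254 and 176 CPM, and Cp at 527 and 158 CPM against 149.9 and 25.6 CPM. Cp was thus above other C1q-high cells in both pools, although its level was lower in the pool labelled Saa3-/-.

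Among secreted signals, Ccl8, a chemokine of monocytes and lymphocytes, stood at 1056 and 439 CPM against 60.9 and 85.0 CPM. Cxcl13, the B cell attractant, stood at 1253 and 91.7 CPM against 125 and 16.3 CPM. Ccl24, an eosinophil attractant, had 62 and 93 molecules in resident-type cells and 7 and 2 in the others. Ccl6 and Ccl7 were the 2 calls among 15 inflammatory cytokines and chemokines. That list's median was -0.24 in the pool labelled wild-type and 0.90 in the pool labelled Saa3-/-, but the second was -0.00841 with the rule applied to thinned cells and -0.00149 with a lipid-laden sum under 5 required. Retnla, a marker of alternative activation, stood at 1609 and 1005 CPM against 362 and 496 CPM. Ltc4s, the leukotriene C4 synthase, stood at 105 and 158 CPM against 22.6 and 32.6 CPM. Further calls were Fxyd2, a regulator of the sodium pump, and Rcn3, a calcium-binding protein of the endoplasmic reticulum.

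Maf, which encodes a transcription factor of mature macrophages, was the only call among 18 macrophage transcription factors, at 497 and 636 CPM against 205 and 165 CPM. Selenop, the plasma selenium carrier, stood at 4944 and 4968 CPM against 2026 and 2213 CPM. It was also the gene whose level followed the resident sum most closely over 387 C1q-high cells thinned to 2000 molecules, with a Spearman coefficient of 0.60 among 3142 genes. Cd163 (0.49), Maf (0.49), Gas6 (0.46) and Fcgrt (0.46) came next, then Ly6e, Ccl6 and Ifitm3 (each 0.45) and C4b (0.44). These cells share 1 capture and 2 pools, and the resident sum had chosen the class, so the coefficients describe only likeness of pattern.

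Of the genes lower in resident-type cells, Mmp12, the macrophage elastase, stood at 8.86 and 17.6 CPM against 267 and 456 CPM, or log2 ratios of -4.87 and -4.62, the lowest among genes outside the rule when the smaller ratio in size of the 2 pools is taken. It was high in both comparison classes, at 255 and 339 CPM in non-resident and 292 and 563 CPM in lipid-laden cells. Mmp14, a membrane-bound collagenase, stood at 71.4 and 62.4 CPM against 254 and 262 CPM, and these were the 2 calls among 13 genes of growth factors and matrix remodelling. Itgax, which encodes CD11c, stood at 39.6 and 52.7 CPM against 294 and 342 CPM. Nes, which encodes the intermediate filament nestin, had 7 and 9 molecules against 206 and 63. Cd9, a tetraspanin of lipid-laden macrophages, stood at 82.7 and 117 CPM against 464 and 359.7 CPM, and with Lgals3, Lpl and Mmp12 made 4 lower and 0 higher of 17 lipid-laden genes outside the rule. Their medians were -0.49 and -1.003. Among 16 genes of lipid handling 3 were lower, the cholesterol exporter Abcg1, the nuclear receptor Pparg and the lipase Lpl. The comparison cells include the lipid-laden class, chosen for a high lipid-laden sum. Summed per cell in the unit of the rule, the whole lipid-laden list had medians of 135 and 114 in resident-type cells. Non-resident cells had 124 and 111, and lipid-laden cells 271 and 333. For lipid handling the medians were 142 and 157, 81.5 and 96.9, and 178 and 200 in that order. On both sums, resident-type cells lay below lipid-laden but not below non-resident cells.

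Several cytokine and signalling genes were past the limit too. Il7r, the interleukin 7 receptor, stood at 16.5 and 23.4 CPM against 90.6 and 180.4 CPM, and Il2ra, the interleukin 2 receptor alpha chain, had 7 and 4 molecules against 79 and 48. Rgs1, a brake on chemokine receptor signalling, stood at 255 and 289 CPM against 768 and 1285 CPM, and Anpep, the aminopeptidase CD13, at 39.0 and 80.0 CPM against 161 and 327 CPM. Adam8, a surface metalloprotease, stood at 44.9 and 46.8 CPM against 142 and 189 CPM. Il1rn, the interleukin 1 receptor antagonist, stood at 83.2 and 72.2 CPM against 239 and 194 CPM, and was the lower call among 11 genes of resolution and alternative activation, beside Retnla and Hmox1 on the higher side. Thbs1 was the only call among 9 monocyte genes, on the lower side. Apbb2, Lhfpl2, Rnf128, AA467197 and Tnfsf13b (the B cell survival factor BAFF) completed the 15 lowest, with the smaller of their 2 log2 ratios in size between -1.81 and -2.61. MHC class II genes gave 1 higher call of 9, H2-DMb2, and medians of 0.38 and 0.46. The 13 NF-kB genes, the 12 interferon genes and the 18 immediate early and heat shock genes gave 0 calls in either direction, as did the 7 proposed SAA receptors. Over all genes 1.25% were higher and 1.12% lower, so 0 calls in lists this short does not show equal levels. The interferon median was -0.10 in the pool labelled wild-type and 1.01 in the pool labelled Saa3-/-. For the immediate early and heat shock genes, which rise during tissue digestion, the medians were 0.14 and 0.72.

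**Figure D3:**
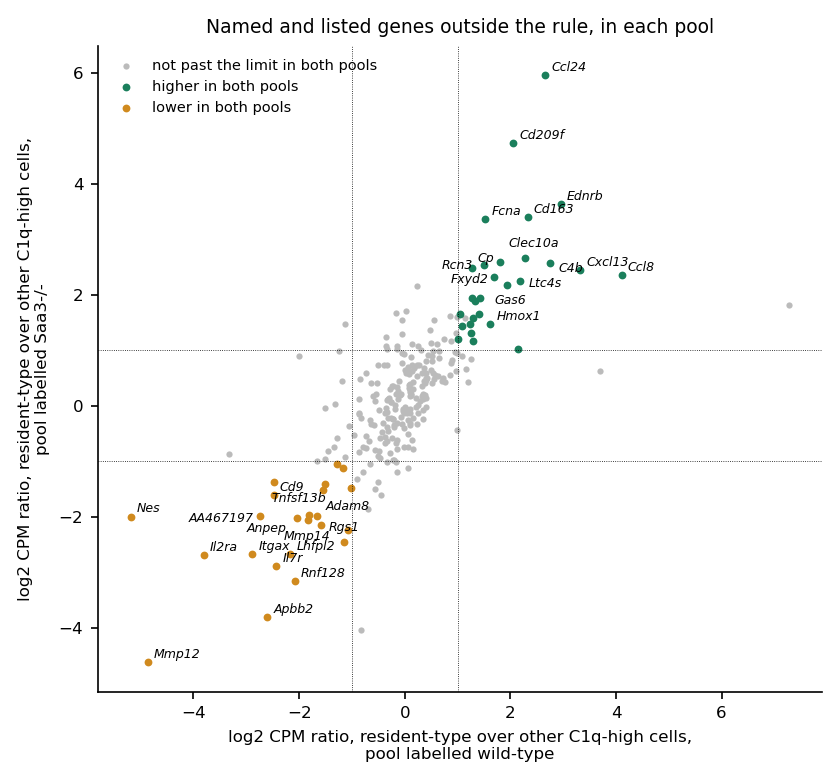
Log2 ratio of CPM, resident-type over other C1q-high cells, in the pool labelled wild-type (horizontal) and in the pool labelled Saa3-/- (vertical), for the named genes and list members outside the rule, with dotted lines at the limits. Ccl8, Cd163 and Clec10a lie in the upper right and Mmp12, Itgax and Nes in the lower left, with Mmp12 at -4.87 and -4.62.

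Within the resident-type cells, those with and without Lyve1 differed in several genes. In the pool labelled wild-type 64 cells had a Lyve1 molecule and 66 had none, and in the pool labelled Saa3-/- 31 and 34. Cells with Lyve1 were deeper in the pool labelled wild-type, with a median of 12798 against 8602 molecules, but not in the pool labelled Saa3-/-, with 6550 against 6456. Their resident sum was also higher, with medians of 86.0 against 30.1 in the pool labelled wild-type and 75.2 against 42.5 in the pool labelled Saa3-/-. Lyve1 is part of that sum, so cells without it lie nearer the limit of the rule. The split by Lyve1 was not tested apart from the resident sum. Of 1915 genes with enough molecules, 13 (0.679%) were higher with Lyve1 in both pools, Lyve1 included, and 5 (0.261%) lower. Cd163 stood at 538 against 94.5 CPM in the pool labelled wild-type and 1004 against 319 CPM in the pool labelled Saa3-/-. F13a1 stood at 1591 against 491 CPM in the pool labelled wild-type and 1776 against 679.8 CPM in the pool labelled Saa3-/-, and Folr2 at 975 against 428 CPM in the pool labelled wild-type and 835 against 388 CPM in the pool labelled Saa3-/-. Gas6, Ednrb, Fcna, Ltc4s, Fxyd2 and Rcn3, all of which were also higher in resident-type cells as a class, were again higher with Lyve1. The remaining calls were Fchsd2, Sulf2 and the immunoglobulin gene Ighm, which marks B cells.

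Cells without Lyve1 had more Il1b, the gene of interleukin 1 beta, and more MHC class II. Il1b stood at 81.6 against 284 CPM in the pool labelled wild-type and 90.2 against 505 CPM in the pool labelled Saa3-/- with and without Lyve1. The other lower genes were Mpeg1, the pore-forming perforin-2 of phagocytes, the TGF-beta receptor Tgfbr1, Olfm1 and Asph. For H2-Aa, H2-Ab1, H2-Eb1 and Cd74 no gene passed the limit, but each was lower with Lyve1 in both pools, with log2 ratios of -0.65 and -0.61 for H2-Aa and -0.66 and -0.49 for Cd74. Per cell these 4 genes summed to a median of 239 and 265 per 10000 molecules with Lyve1 and 502 and 579 without it. A low sum, under 100, was found in 24 of 64 and 12 of 31 cells with Lyve1, and in 7 of 66 and 7 of 34 without. Ccr2, the monocyte chemokine receptor, had log2 ratios of -1.71 and -0.28, which were -2.17 and 0.13 without the marker-rich cells. Timd4, a phosphatidylserine receptor of embryonically seeded macrophages, was sparse, with 103 and 27 molecules, and its log2 ratios were 5.05 and 2.82.

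Over all 195 cells, Lyve1 had Spearman coefficients of 0.63 with F13a1, 0.54 with Cd163, 0.54 with Timd4 and -0.42 with the MHC class II sum. Ccr2 had 0.50 with that sum, and F13a1 0.63 with Cbr2. By pool, F13a1 and Lyve1 had 0.68 under the wild-type label and 0.54 under the Saa3-/- label. Lyve1, F13a1 and Cbr2 are also part of the resident sum that chose the cells, which shapes the coefficients between them. The cells come from 1 capture and differ in depth, so these are descriptions. With every cell thinned to 2000 molecules, 5 genes were higher and 1 lower with Lyve1.

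**Figure D4:**
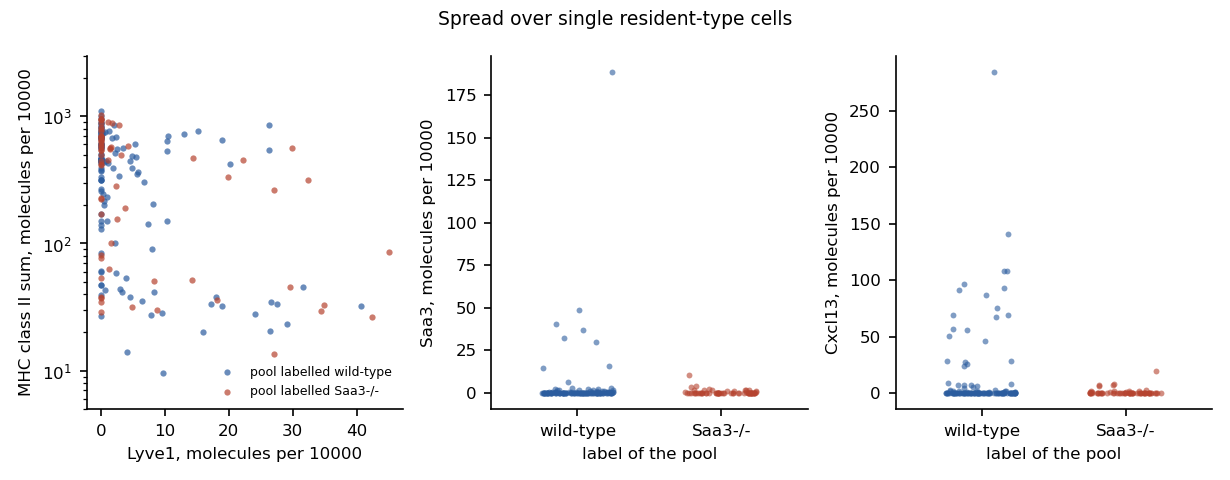
Single resident-type cells, in molecules per 10000 molecules of the cell, by pool: Lyve1 (horizontal) against the MHC class II sum of H2-Aa, H2-Ab1, H2-Eb1 and Cd74 (vertical, log axis) on the left, Saa3 in the middle and Cxcl13 on the right (points spread sideways for visibility only). Cells of low MHC class II sum are more often those with Lyve1, 24 of 64 against 7 of 66 in the pool labelled wild-type, and high Saa3 and Cxcl13 sit in a minority of its cells (9 and 23 with at least 10 molecules).

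Between the pools, resident-type cells of the pool labelled Saa3-/- had lower levels of Saa3, Cxcl13, Ccl8, Cp and Cd55 and higher levels of Cxcl1, Cxcl2, Ccl3, Ccl4, Tnf and Ccr2. The rule's class was the same on both sides, and a positive ratio means a higher level under the Saa3-/- label. Of 5982 genes, 75 (1.25%) were higher and 105 (1.76%) lower by the same limits, and the median log2 ratio of all genes was 0.07. Scaled to that median, the split was 50 higher and 130 lower. Most calls rest on few molecules, since 12 of the 75 and 20 of the 105 had at least 200. Of the 29 further resident genes compared, 2 were higher and 1 lower, with a median of 0.32. The 9 MHC class II genes and 16 pan-macrophage genes gave 0 calls, with medians of 0.12 and -0.05. No call fell in the lists of scavenger receptors (15 compared), lipid handling (18), lipid-laden genes outside the rule (15), NF-kB (13), transcription factors (19), efferocytosis (16), resolution (11) and colony-stimulating factor receptors (5). A lower level can come from fewer cells with the gene or from less RNA in each, and the per-cell counts are given where they tell these apart.

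Saa3 (GRCm38 chromosome 7, 46711998 to 46715700, minus strand) stood at 465 CPM (433 to 499) in the pool labelled wild-type and 44.9 CPM (28.4 to 67.3) in the pool labelled Saa3-/-, a log2 ratio of -3.34. The difference lay in 9 cells of the pool labelled wild-type with at least 10 Saa3 molecules each, 10 to 244, which held 733 of its 788 molecules. They were 6.92% of its cells (3.21 to 12.7%). In the pool labelled Saa3-/- no cell of 65 reached 10, for which the exact upper limit is 5.52%, and the highest had 7. Without the 9 cells the level in the pool labelled wild-type was 36.7 CPM, against 44.9 CPM in the pool labelled Saa3-/-, near the 31.2 and 29.3 CPM of cells with T cell markers. Resident-type cells held 73.0% of all Saa3 molecules of the pool labelled wild-type and 1.81% of those of the pool labelled Saa3-/-. In other C1q-high cells Saa3 stood at 105 and 17.5 CPM. Of the 9 cells, 6 had Lyve1, beside 49.2% of all resident-type cells of the pool labelled wild-type. The 9 cells were deep, with a median of 21086 molecules against 10486 for all resident-type cells of that pool. Whether depth accounts for their Lyve1 was not tested.

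Cxcl13 (GRCm38 chromosome 5, 95956951 to 95961068, plus strand) followed the same order, at 1253 CPM (1200.1 to 1307) and 91.7 CPM (67.4 to 122), or 2122 and 47 molecules. In the pool labelled wild-type 23 cells (17.7%, 11.6 to 25.4%) had at least 10 molecules, and in the pool labelled Saa3-/- 1 cell (1.54%). Of the 23, 18 (78.3%) had Lyve1, beside 49.2% of all resident-type cells of that pool. Cxcl13 stood at 1927 CPM with Lyve1 and 428 CPM without it in the pool labelled wild-type. In the pool labelled Saa3-/- the order was opposite, at 47.0 and 136 CPM, on 12 and 35 molecules. Resident-type cells held 90.5% of the Cxcl13 of the pool labelled wild-type. Only 2 of the 9 Saa3-rich cells were also among the 23. Ccl8 stood at 1056 CPM (1007 to 1106) and 439 CPM (384 to 500.3), with at least 10 molecules in 35 and 5 cells. Cp stood at 527 CPM (493 to 563) and 158 CPM (126 to 196), with at least 10 molecules in 32 and 1 cells, and it was lower in other C1q-high cells of the pool labelled Saa3-/- too, at 149.9 and 25.6 CPM. By the levels given above, Cxcl13 was also lower in other C1q-high cells of that pool, whereas Ccl8 was higher. A fixed number of molecules per cell is reached more easily in the deeper pool, which was the pool labelled wild-type.

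Cd55, the decay-accelerating factor that protects cells from complement, had 261 molecules in 62 cells of the pool labelled wild-type and 15 in 10 cells of the pool labelled Saa3-/-, or 154 and 29.3 CPM. C3, the central complement component, stood at 331 CPM (304 to 359.8) and 156 CPM (124 to 194). They were the 2 calls among 15 complement genes, of which 9 lay above 0, with a median of 0.21. Ikbke, a kinase of interferon and NF-kB signalling, had 76 molecules in 43 cells against 3 in 2 cells, or 44.9 CPM (35.4 to 56.2) and 5.85 CPM (1.21 to 17.1). In other C1q-high cells Ikbke stood at 30.5 and 31.4 CPM. Fpr1 and Fpr2, formyl peptide receptors and the 2 calls among 11 proposed SAA receptors compared, had 72 and 96 molecules in the pool labelled wild-type and 4 and 8 in the pool labelled Saa3-/-. The matrix protease Mmp9, the interferon-induced sensor Zbp1 and the topoisomerase Top2a were lower as well, each the single call of its list. These lists had 16, 18 and 10 genes compared. Over all genes 1.76% were lower, and a single call does not describe its list.

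In the opposite direction, 5 of 15 inflammatory cytokines and chemokines were higher in the pool labelled Saa3-/- and 0 lower, with a median of 0.79. Cxcl1, a neutrophil attractant, stood at 184 CPM (164 to 205) in the pool labelled wild-type and 515 CPM (455 to 581) in the pool labelled Saa3-/-. Cxcl2, another, stood at 702 CPM (663 to 743) and 1891 CPM (1774 to 2014). Ccl3 and Ccl4, chemokines of monocytes and T cells, had log2 ratios of 1.26 and 1.45, and Tnf one of 1.23. In other C1q-high cells the same ratios were 0.14 for Cxcl1, -0.16 for Cxcl2, -0.06 for Ccl3 and -0.25 for Ccl4, and whether they differed from those of resident-type cells was not tested. In the pool labelled Saa3-/-, all 5 genes had a higher CPM in cells near the lipid-laden limit than in its other cells. The other cells, which are more numerous, still held more of the molecules of each gene. In the 16 cells of the pool labelled Saa3-/- with a lipid-laden sum of 5 to 10, Cxcl2 stood at 3376 CPM (427 molecules), against 1404 CPM (542 molecules) in its other 49. In the 12 such cells of the pool labelled wild-type it stood at 312 CPM, against 745 CPM in the rest. With a lipid-laden sum under 5 required, the log2 ratios were 0.93 for Cxcl1, 0.92 for Cxcl2, 0.77 for Ccl3, 0.85 for Tnf and 1.17 for Ccl4, and none of the 5 was called. The immediate early and heat shock list, raised by tissue handling, lay on the same side, with 15 of 18 genes above 0 and a median of 0.34, and its part in the result was not tested.

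Ccr2, the receptor that brings monocytes into tissue, was also higher, at 267 CPM (243 to 293) and 595 CPM (530.2 to 666). The matricellular gene Thbs1 was lower, at 89.7 CPM in the pool labelled wild-type and 27.3 CPM in the pool labelled Saa3-/-. Of 12 monocyte genes compared, 2 were higher and 1 lower, 5 lay above 0 and the median was -0.21. Ccl24 was the resident gene with the largest excess in the pool labelled Saa3-/-, with 93 molecules in 19 cells against 62 in 27, or 181 CPM (146 to 222) and 36.6 CPM (28.1 to 46.9). The organic anion transporter Slco2b1 was the other. Gdf3, a TGF-beta family ligand, had 40 molecules in 11 cells against 24 in 9, so its log2 ratio of 2.45 rests on few cells. Stat4, Hhex, Mras, Itga6, Cacna1d, Plekhg5, Ccdc134, Bcl2a1a and Gm47283 completed the 12 highest, each with at most 54 molecules in a pool. Of the 50-base stretches of Bcl2a1a, 69% occur in Bcl2a1d as well. For Gm47283, annotated on chromosome Y although the mice are labelled female, it is 40.5%, shared with Gm21887, and for Stat4 21.7%, with Gm28177, so these values are uncertain.

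Of the 12 lowest genes in the pool labelled Saa3-/-, 4 encode mast cell proteases (Cma1, Tpsb2, Cpa3 and Mcpt4), 4 are immunoglobulin or J chain genes of B and plasma cells (Igkc, Ighm, Iglc1 and Jchain) and Slpi encodes a protease inhibitor. The mast cell markers summed to 50 per 10000 molecules or more in 2 resident-type cells of the pool labelled wild-type, with up to 945, and in 0 of the pool labelled Saa3-/-. B cell markers reached that level in 12 and 5 cells and plasma cell markers in 3 and 0. For fibroblast markers it was 4 and 1 cells, for smooth muscle 4 and 0, for endothelial 0 and 1. Without the 30 and 14 cells at or above 50 for the summed markers of these lineages, 4817 genes were compared, of which 64 (1.33%) were higher and 69 (1.43%) lower, and 30 of the 75 and 33 of the 105 earlier calls were among them. The log2 ratio of Cma1 was then -0.71 in place of -4.72, that of Igkc -0.27 in place of -3.51, and that of Jchain -0.29 in place of -4.41. The 9 genes then ranged from -0.71 to 0.97, but only Igkc, Ighm and Mcpt4 still had the 50 molecules needed to be compared. Without those cells the ratio was -3.62 for Saa3, -3.69 for Cxcl13, -2.70 for Ikbke, -1.92 for Cp, -1.58 for Ccl8, 1.14 for Ccr2 and 2.59 for Ccl24. Cxcl1 was at 1.26 and Ccl4 at 1.44. Cd55 was at -3.96 in place of -2.35. Of the 12 highest genes, Cacna1d was at 0.68 in place of 1.69 and no longer called, and Stat4, Plekhg5, Hhex, Mras and Ccdc134 had too few molecules left to be compared.

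**Figure D5:**
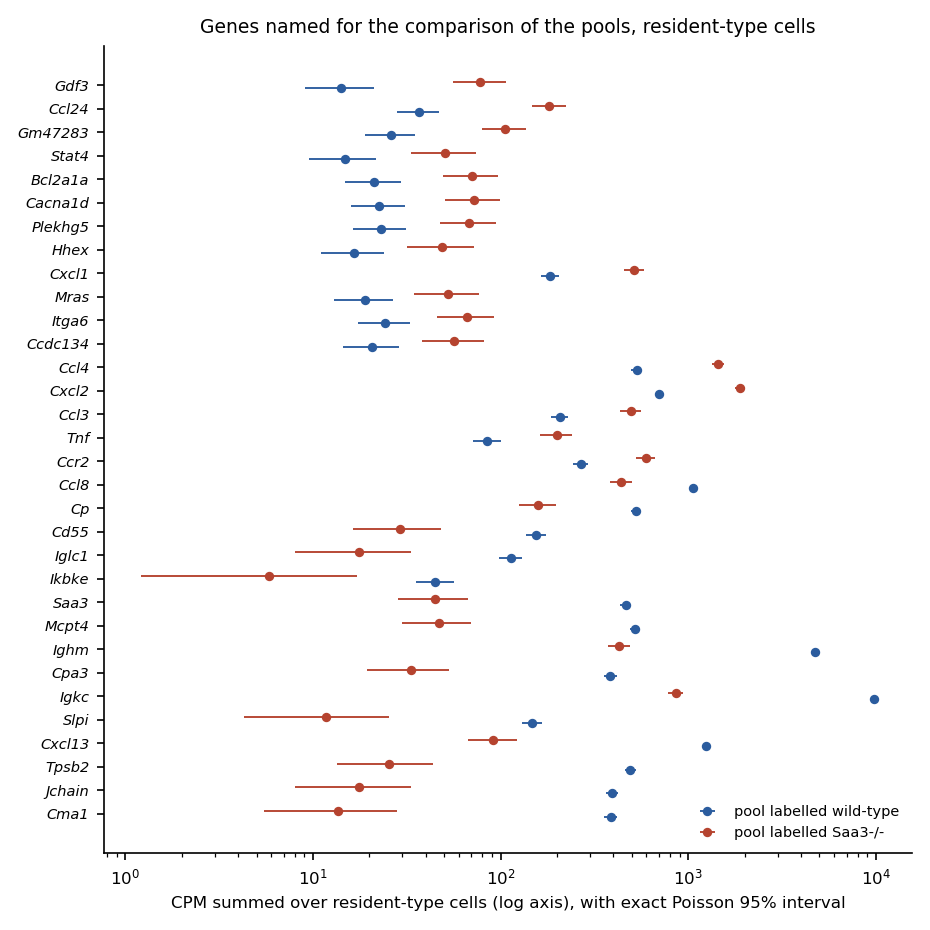
Level in CPM (horizontal, log axis), with exact Poisson 95% intervals, of the 12 highest and 12 lowest genes between the pools and of further list members past the limit, summed over resident-type cells of each pool. Saa3 and Cxcl13 are lower in the pool labelled Saa3-/- (44.9 against 465 CPM and 91.7 against 1253 CPM), and Cxcl1 and Ccl24 are higher.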

How the data were processed

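The authors deposited counts of molecules per gene and cell, 1 table per sample tag, with 26189 genes and no normalization named, per the file headers. They ran the BD Rhapsody WTA pipeline 1.11.1 against GRCm38 with GENCODE M19, per the file headers, and the submitters' processing notes also name R 4.3.1 and Seurat 4.3.0. The genotype of a tag comes only from the names of the tables. How reads of near-identical genes or strands were counted is not given in the sources used here.

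Python 3.11.15 with numpy 2.4.6, pandas 2.3.3, scipy 1.17.1 and matplotlib 3.10.9 was used. Cells over 25% mitochondrial molecules were removed (56 and 31), and no doublet caller was run. The deposited tag calls had already set aside 11 multiplets. Molecules were summed over cells and divided by the total, and log2 ratios used a pseudocount of 0.5 molecule. Calls needed 2-fold, 50 molecules, 10 cells, and the fold without the highest cell of each side. Named genes are the 15 highest and lowest by class, the 12 by pool, list members and the genes most like the resident sum. The ratio function was tested on simulated data. Positions are from GENCODE M21 on GRCm38, and promoters from RefSeq, where 5 of the 6 resident genes matched. Members and lists were chosen with earlier results of these data known. Some items are not reported here. Alternatives varied the cell limits, thresholds, scaling, pseudocount and depth.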

Additional observations from a re-analysis of the deposited data

How the results depend on the processing

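The resident-type share stayed higher in the pool labelled wild-type in all 9 alternative choices of cells. With a resident sum of at least 10 it was 18.4% of kept cells there, and 64.8% and 49.7% of C1q-high cells in the 2 pools. With at least 30 it was 11.0% and 5.95% of kept cells, and 39.0% and 30.8% of C1q-high cells. A lipid-laden sum under 5 gave 5.95% and 30.8% in the pool labelled Saa3-/-. Without cells rich in markers of other lineages it was 29.4% and 18.5% of kept cells, since the kept cells then number 340 and 276.

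The counts of genes moved more. Between pools, 75 higher and 105 lower became 159 and 344 with at least 20 molecules, 12 and 20 with at least 200, 113 and 31 with a pseudocount of 5, and 17 and 22 with cells thinned to 2000 molecules. Of the 17 and 22 thinned calls, only 6 and 8 were among the 75 and 105. A resident sum of at least 30 kept 25 of the 75 and 35 of the 105. With a lipid-laden sum under 5 required, 37 and 58 were kept. Without the condition on spread 128 were higher, and without marker-rich cells 69 were lower. Between classes, 57 higher and 51 lower became 23 and 21 with at least 200 molecules and 27 and 17 when thinned, and 100 were higher with at least 20 molecules. Fewer molecules lower the number of genes tested. The split by Lyve1 gave 5 and 1 when thinned, an alternative chosen after seeing the data.

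Without marker-rich cells the direction turned for Tpsb2 (0.34), Cpa3 (0.97), Mcpt4 (0.55) and Iglc1 (0.23). Of these only Mcpt4 had enough molecules left to be compared. Thinned, Ccdc134 was at -0.078. The inflammatory list's median between classes in the pool labelled Saa3-/- was -0.00841 with the rule applied to thinned cells and -0.00149 with a lipid-laden sum under 5. Over all alternatives, 380 values of named genes between classes kept their side of the limit and 36 did not, and between pools 374 kept it, 102 did not and 5 reversed. No paired analysis was possible because each genotype has 1 pool and no result comes from a test. Spread between mice was not measured.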

Other observations

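Some cells carried resident genes with little C1q. They had a C1q sum under 30, a resident sum of at least 15 and a lipid-laden sum under 10, and numbered 23 in the pool labelled wild-type and 13 in the pool labelled Saa3-/-. Their median C1q sum was 4.22 and 3.56 per 10000 molecules. Csf1r was found in 18 and 6 of them, and Lyve1 in 3 and 1. Dcn, the fibroblast proteoglycan decorin, was found in 19 and 12. Fibroblast markers summed to at least 50 per 10000 molecules in 4 and 3 and smooth muscle markers in 8 and 7. Cd209a, a lectin of dendritic cells, had 5 molecules in 1 cell and 41 molecules in 3 cells.

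A further 25 C1q-high cells met the resident limit but had a lipid-laden sum of at least 10, and were counted as lipid-laden. Of the cell cycle genes, 9 were compared between resident-type and other C1q-high cells, with 0 higher and 0 lower and medians of -0.18 and -0.35. Over all genes 1.25% were higher and 1.12% lower. Of 5 genes of colony-stimulating factors and their receptors, the receptor subunit Csf2rb2 alone was lower in resident-type cells, at 29.5 and 33.2 CPM against 71.8 and 69.9 CPM.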
